A study of Mirounga angustirostris with 8 samples.

Results

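Heat shock proteins and their co-chaperones were compared between pre-molt and post-molt skeletal muscle of the northern elephant seal (NES). Members were taken by gene symbol: the HSP70 (HSPA), HSP110 (HSPH), HSP90, HSP60 (HSPD) and HSP10 (HSPE) chaperones, the small heat shock proteins (HSPB), the J-domain co-chaperones (DNAJA, DNAJB and DNAJC), the BAG co-chaperones BAG1 to BAG6, and the heat shock factors HSF1 and HSF2. Of 78 matching symbols among 24341 named genes of the count table, 71 had at least 80 reads summed over the 8 libraries and were kept. They were 11 HSPA, 1 HSPH, 3 HSP90, 2 HSPD and HSPE, 7 HSPB, 4 DNAJA, 10 DNAJB, 25 DNAJC, 6 BAG and 2 HSF genes, and all 71 passed the filter on low counts that was set for the test. The members closest above the minimum were DNAJC5B with 140 reads and DNAJC5G with 215, and below it HSPA1B had 12 reads, DNAJB3 had 3, DNAJB8 and HSPB9 had 1 each, and HSPA6, DNAJB7 and DNAJC22 had 0.

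Both groups were biopsies of the longissimus dorsi, a back muscle, from adult female NES during the spring molt, when the animals stay on land, fast and move little. The 4 pre-molt seals (5572, 5842, 6762 and C497) were sampled no later than 5 days after coming ashore, and the 4 post-molt seals (4448, 5572, 9678 and X410) near the end of the molt, in a study whose second biopsies followed the first by a mean of 34 days. Seals were sedated for each biopsy in both groups, and apart from seal 5572, which was sequenced before and after, the animals of the groups differed. According to the methods, some samples sequenced poorly because their RNA was of low quality. The libraries of each stage were therefore the ones with the most uniquely mapped reads. Reads were aligned to the genome of the Hawaiian monk seal, and the reported share of uniquely mapped reads was lowest in post-molt 9678 and pre-molt 5842.

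Heat shock proteins bind unfolded or damaged proteins and help them to fold, stay soluble or reach the degradation machinery. HSP70 is the hub of the system: J-domain proteins bring it clients and start ATP hydrolysis, BAG and HSP110 proteins drive release of the nucleotide, and HSP90 receives clients for late steps of folding. Small heat shock proteins hold unfolding proteins without ATP and are abundant in striated muscle, where they associate with the Z-disc and with filaments, and HSF1 is the factor that switches on the heat-inducible members under stress.

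The libraries held 30774895 to 61229829 counted reads, and 14314 genes were tested. Values are read counts relative to library size after scaling by the TMM factors of edgeR (CPM), a positive log2 fold change means a higher post-molt level and is given with the standard error (SE) of the edgeR fit, and an adjusted p is Benjamini-Hochberg over all genes tested by the edgeR quasi-likelihood test unless DESeq2 or limma is named. Seals were the replicates, and 6 of the 7 seals had 1 library here. The p-values of the fits set the difference between the stages against the spread among the libraries within a stage. Both libraries of seal 5572 entered every test as independent samples, although they came from the same animal. The 12 skeletal muscle markers summed to 173914 to 295270 CPM per library, and the myosin heavy chain symbols MYH1, MYH2, MYH4 and MYH7 were not analysed here. Within that list TTN was at 1152 CPM in pre-molt 5572 and at 1630 to 4193 CPM in post-molt 4448, 5572 and X410. In pre-molt 5842, 6762 and C497 and in post-molt 9678 it was at 16474 to 28797 CPM. NEB was split in the same way (645 to 2254 against 3279 to 6488 CPM). The part of RNA quality in this split was not tested. Some other marker sums differed between the stages. The 9 fast fiber genes in the table summed to between 8370 and 25699 CPM pre-molt and between 4670 and 7156 CPM post-molt. The fast fiber gene PVALB was near 0 throughout (0 to 1.24 CPM). ACTN3 made up most of the sum in pre-molt 5572 and 6762 (7642 and 7012 CPM), and the genes of the list did not share a pattern. MYLPF was at 14.1 and 12.6 CPM in these libraries, at 2932 and 1583 CPM in pre-molt 5842 and C497, and at 39.7 to 271 CPM post-molt. TNNT3 and TNNI2 had the same order. The 5 satellite cell genes summed to between 93.4 and 99.1 CPM pre-molt and between 78.4 and 92.7 CPM post-molt. Most of this sum was CDH15, whose groups overlapped (58.8 to 80.4 CPM pre-molt, 69.2 to 83.9 CPM post-molt). NCAM1 was at 8.07 to 35.8 and at 4.63 to 9.87 CPM, and MYF5 had a positive log2 fold change (0.62). PAX7 and CALCR stayed at or below 2.33 and 0.319 CPM. The 10 fibroblast genes, whose ranges overlapped, summed to between 466 and 1529 CPM pre-molt and between 192 and 494 CPM post-molt. The 15 immediate early genes in the table, which respond to handling and stimulation within minutes, summed to 2330 CPM in post-molt 4448 and 3293 CPM in post-molt X410, against 288 to 587 CPM in the other libraries. Of these genes, NR4A1 (12.4 to 19.9 CPM pre-molt, 30.2 to 361 CPM post-molt) and DUSP1 (41.2 to 104 and 109 to 529 CPM) were higher in every post-molt library. The groups overlapped in the rest of the list. The part of these differences in the results was not tested, and in such bulk tissue fewer cells of a type and less RNA per cell cannot be told apart.

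Among the 71 members, DNAJB6 was the only gene past an edgeR adjusted p of 0.05. It rose 2.22-fold post-molt, and no member fell at this threshold. Over all genes tested, 0.217% passed with higher and 0.133% with lower levels post-molt. With a threshold of 0.05 on the unadjusted p, 11 members were higher post-molt and 3 lower, where 5.2% and 6.22% of all genes tested were. The 11 were HSF1, HSPA12B, HSP90B1, HSPB6, HSPB8, DNAJA4, DNAJB1, DNAJB2, DNAJB4, DNAJB6 and BAG1, and the 3 were HSPB1, HSPB3 and DNAJC7. DESeq2 called 8 members higher and 0 lower (3.07% and 2.92% of the 10745 genes to which it gave an adjusted p), and limma-voom called DNAJA4, DNAJB6 and HSPB6 higher and 0 members lower (0.384% and 0.272% of all genes tested). The 4 post-molt libraries all lay above the 4 pre-molt libraries in 7 members and below them in 0, against 4.04% and 5.11% of all genes tested. Without post-molt 4448 and X410, the libraries with the high immediate early sums, edgeR called 0 members and 1 gene of 15088 tested (0.00663%, higher), and 6 members with higher levels had an unadjusted p under 0.05, as did 3.19% of all genes in that fit.

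By family, all 10 DNAJB members had a positive fold change, with a median of 0.49, and 4 of the 10 had an unadjusted p under 0.05. In the DNAJC family 15 of 25 were positive with a median of 0.05. Of the 25, 19 lay within 0.5 log2 units of 0, as did 62.2% of all genes tested. Medians were 0.57 over the 4 DNAJA genes, 0.34 over the 3 HSP90 genes, 0.25 over the 11 HSPA genes, 0.23 over the 6 BAG genes, -0.05 over the 7 HSPB genes and -0.15 over HSPD1 and HSPE1. Over all members 47 of 71 were positive with a median of 0.09, and over all genes tested 46.4% were positive with a median of -0.04. These are descriptions of the families and not tests of them.

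**Figure D1:**
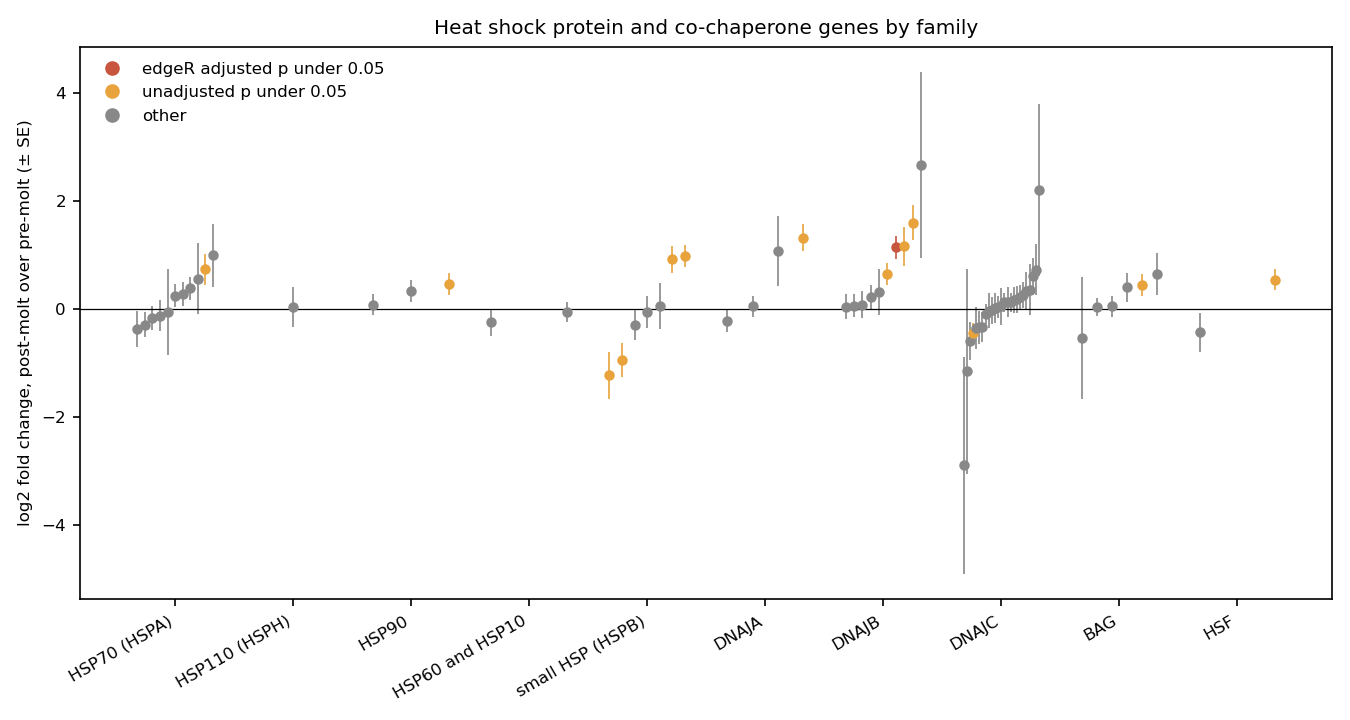
Log2 fold change post-molt over pre-molt (vertical axis, with bars of ± 1 SE from the edgeR fit) of each of the 71 members, arranged by family and by size within a family. Red marks an edgeR adjusted p under 0.05 (DNAJB6 alone), orange an unadjusted p under 0.05 (13 members) and grey the rest; the longest bars belong to DNAJB13, DNAJC5B, DNAJC5G and DNAJC27, genes with few reads.

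HSF1, the main activator of the heat shock response, and HSF2, a related factor with roles in development and proteostasis, lay on different sides of 0. HSF1 was at 131, 87.7, 106 and 83.8 CPM in pre-molt seals 5572, 5842, 6762 and C497 and at 166, 137, 141 and 154 CPM in post-molt seals 4448, 5572, 9678 and X410, the order kept for every gene that follows. Every post-molt library was above every pre-molt library, although the closest values, 131 and 137 CPM, were those of the same seal, 5572. The fold change was 0.55 ± 0.19 (SE), with an edgeR adjusted p of 0.251 and, over 18 alternatives, adjusted p from 0.0437 (DESeq2) to 0.837. HSF2 was at 7.90, 26.8, 16.4 and 18.3 CPM pre-molt and at 11.3, 10.1, 19.2 and 11.0 CPM post-molt. Its groups overlapped, and its fold change was -0.43 ± 0.36 (SE, edgeR adjusted p = 0.747).

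The J-domain co-chaperones held the largest differences of the set. DNAJB6, a suppressor of protein aggregation at the Z-disc whose mutations cause a limb-girdle muscular dystrophy, was at 87.8, 81.8, 109 and 125 CPM pre-molt and at 242, 188, 275 and 187 CPM post-molt. The lowest post-molt library was well above the highest pre-molt library, and the 2 libraries of seal 5572 differed by 1.10 log2 units. DNAJB6 rose from 101 ± 19.7 to 223 ± 43.2 CPM (SD, n = 4 each), a log2 fold change of 1.15 ± 0.21 (SE, edgeR adjusted p = 0.0422). Over 18 alternatives its log2 fold change stayed between 0.97 and 1.27, with adjusted p between 1.61e-05 (DESeq2) and 0.223, and its edgeR call ended in 7 of the 8 fits without 1 library, each of them but the fit without pre-molt C497.

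DNAJB1, the classical stress-inducible partner of HSP70, had the largest fold change among members with more than 1000 reads, at 1.60 ± 0.32 (SE). Its levels were 10.8, 11.6, 11.3 and 18.7 CPM pre-molt and 33.8, 24.6, 32.4 and 68.1 CPM post-molt. The groups did not overlap, and the highest library of each group, C497 and X410, stood apart from the other 3. The mean went from 13.1 ± 3.72 to 39.7 ± 19.4 CPM (SD, n = 4 each), and the edgeR adjusted p was 0.0546, with 0.000462 (DESeq2) to 0.363 over the alternatives. Without post-molt X410 the log2 fold change was 1.21, and without both X410 and 4448 it was 1.13.

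DNAJA4, a J-domain protein linked to sterol metabolism, was at 78.8, 118, 58.0 and 57.8 CPM pre-molt and at 251, 174, 199.9 and 159.6 CPM post-molt. All post-molt libraries were higher, and here the libraries with the high immediate early sums were at both ends of the post-molt range, 4448 highest and X410 lowest. The log2 fold change was 1.33 ± 0.26 (SE, edgeR adjusted p = 0.0531), from 1.19 to 1.62 over 18 alternatives with adjusted p from 0.00026 (DESeq2) to 0.272. In 4 of the 18 DNAJA4 passed the threshold.

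DNAJB4, a heat-inducible protein close to DNAJB1 whose loss causes a myopathy, was at 35.4, 30.4, 31.2 and 76.1 CPM pre-molt and at 104, 75.7, 54.8 and 155 CPM post-molt. The groups overlapped because pre-molt C497 was above post-molt 5572 and 9678, and the highest post-molt values were those of X410 and 4448. The log2 fold change was 1.17 ± 0.36 (SE, edgeR adjusted p = 0.186; 0.0363 by DESeq2 to 0.866 over the alternatives), but 0.60 without 4448 and X410. DNAJB2, which binds ubiquitin and hands clients to the proteasome, was at 139.5, 89.7, 120.0 and 87.3 CPM pre-molt and at 188, 183, 169 and 146 CPM post-molt. Its groups did not overlap, and its log2 fold change was 0.65 ± 0.20 (SE, edgeR adjusted p = 0.187; 0.0205 by DESeq2 to 0.612 over the alternatives).

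Other DNAJA and DNAJB genes differed less or rested on 1 library. DNAJA2, a constitutive partner of HSP70, was at 147, 122, 198 and 181 CPM pre-molt and at 133, 124, 128 and 173 CPM post-molt, with a log2 fold change of -0.22 ± 0.20 (SE, edgeR adjusted p = 0.792). DNAJA1, a farnesylated J-domain protein, was at 2.38 to 7.83 CPM pre-molt and at 9.26, 5.83, 1.77 and 26.6 CPM post-molt; its log2 fold change of 1.08 ± 0.65 (SE, edgeR adjusted p = 0.599) was 0.14 without post-molt X410. Of the 384 reads of DNAJB13, a gene of motile cilia and sperm tails, 319 were in post-molt 4448.

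**Figure D2:**
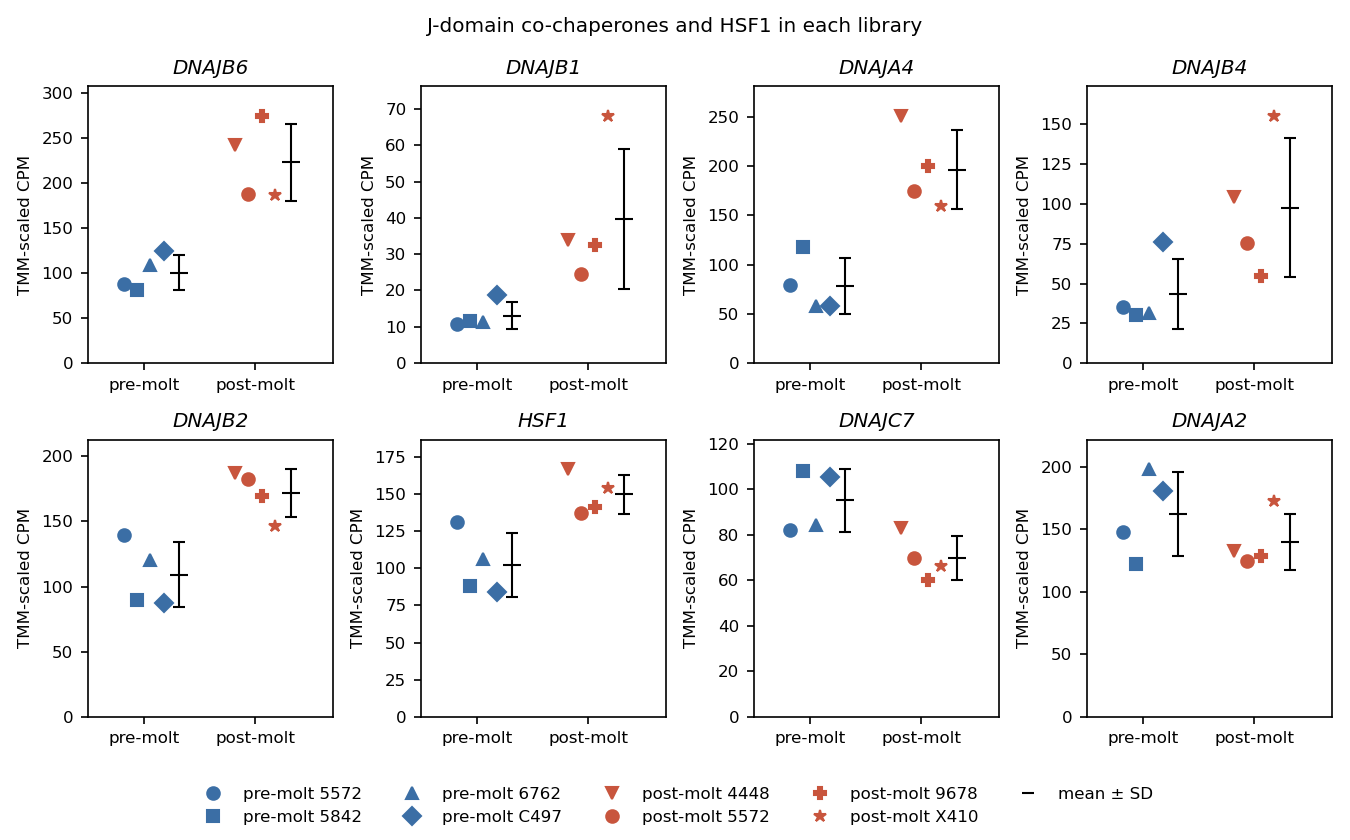
TMM-scaled CPM (vertical axes, from 0) of 7 J-domain co-chaperones and HSF1 in the 4 pre-molt (blue) and 4 post-molt (red) libraries, 1 symbol per library, with the mean ± SD of each group beside the points. DNAJB6, DNAJB1, DNAJA4, DNAJB2 and HSF1 show no overlap between the groups, with post-molt higher, whereas DNAJB4, DNAJC7 and DNAJA2 overlap.

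The within-library ratio of DNAJB1 to DNAJA2, which no library scaling can change, was higher in every post-molt library than in any pre-molt library. As log2 of the count ratio it was -3.77, -3.39, -4.13 and -3.27 pre-molt and -1.98, -2.34, -1.99 and -1.34 post-molt. The means were -3.64 ± 0.39 and -1.91 ± 0.42 (SD, n = 4 each), a difference of 1.73, and an exact two-sided permutation test gave p = 0.0286, the smallest value that 4 against 4 libraries allow (adjusted p = 0.114 over the 4 ratios computed). The other 3 ratios of a more to a less heat-inducible gene had overlapping groups. HSP90AA1 to HSP90AB1 differed by 0.25 (exact permutation p = 0.0857, adjusted 0.171), HSPA1A to HSPA8 by 0.83 (exact permutation p = 0.229, adjusted 0.305) and HSPH1 to HSPA4 by 0.15 (exact permutation p = 0.714, adjusted 0.714), and the last was -0.17 without post-molt X410.

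In the DNAJC family, whose members tie HSP70 to particular places and tasks, 0 members were called by edgeR in either direction or by DESeq2, and 1 (DNAJC7, lower) had an unadjusted p under 0.05. DNAJC7, which carries clients between HSP70 and HSP90, was at 82.2, 108, 84.5 and 106 CPM pre-molt and at 83.2, 70.04, 60.2 and 66.4 CPM post-molt. All post-molt libraries but 4448 were below all pre-molt libraries, and the log2 fold change was -0.44 ± 0.18 (SE, edgeR adjusted p = 0.364). DNAJC5, the cysteine string protein of secretory vesicles, differed little, at 59.5 ± 7.72 and 65.3 ± 4.87 CPM (SD, n = 4 each). DNAJC15, which takes part in protein import into mitochondria, was at 5.24 to 6.08 CPM pre-molt and at 8.18, 5.94, 13.5 and 7.11 CPM post-molt (log2 fold change 0.61 ± 0.34, SE, edgeR adjusted p = 0.557). DNAJC5B and DNAJC5G, the least counted members, stayed at or below 1.13 and 1.94 CPM, where their SEs of 2.01 and 1.60 log2 units exceed the other differences in the family.

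The small heat shock proteins split into genes with higher and genes with lower values post-molt. HSPB6 (HSP20), a small heat shock protein of striated and smooth muscle regulated by phosphorylation, was at 1947, 1622, 1180.3 and 1510.0 CPM pre-molt and at 2795, 3591, 2783 and 3246 CPM post-molt. The groups were apart, around means of 1565 ± 316 and 3104 ± 389.8 CPM (SD, n = 4 each). The log2 fold change of 0.99 ± 0.21 (SE) had an edgeR adjusted p of 0.0629, and over 18 alternatives it ranged from 0.88 to 1.11 with adjusted p from 3.45e-05 (DESeq2) to 0.376. It passed in 2 of the 18, DESeq2 and limma-voom.

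HSPB8 (HSP22), the partner that BAG3 uses to route damaged muscle proteins to autophagy, was at 465, 317, 493 and 662 CPM pre-molt and at 1087, 736, 859 and 988 CPM post-molt. Again every post-molt library exceeded every pre-molt library, with 736 CPM in post-molt 5572 and 662 CPM in pre-molt C497 the closest. The log2 fold change was 0.92 ± 0.24 (SE, edgeR adjusted p = 0.113; 0.00372 by DESeq2 to 0.714 over the alternatives), and it was 0.73 without post-molt 4448 and X410.

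HSPB1 (HSP27), which protects actin filaments, had the opposite sign. It was at 1437, 1456, 845 and 2292 CPM pre-molt and at 544, 357, 338 and 1350.0 CPM post-molt. Post-molt X410 lay within the pre-molt range and the other 3 post-molt libraries lay below it. The log2 fold change of -1.22 ± 0.43 (SE) did not pass in edgeR (adjusted p = 0.263) and was -1.87 without X410 (edgeR adjusted p = 0.0591), the lowest adjusted p over 18 alternatives that reached 0.613. The 2 libraries of seal 5572 differed by -2.01 log2 units.

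HSPB3, which forms a complex with HSPB2 in muscle, was at 16.7, 19.8, 9.71 and 25.0 CPM pre-molt and at 6.16, 9.36, 10.7 and 10.9 CPM post-molt. The pre-molt library of seal 6762 lay among the post-molt values, and the log2 fold change was -0.94 ± 0.32 (SE, edgeR adjusted p = 0.241). Its partner HSPB2 was at 47.5, 59.4, 29.5 and 84.4 CPM and at 35.1, 47.8, 41.2 and 56.9 CPM, with a log2 fold change of -0.29 ± 0.29 (SE, edgeR adjusted p = 0.809). HSPB7, a filamin-binding protein of heart and muscle, was at 478, 475, 234 and 792 CPM and at 492, 481, 512 and 427 CPM. Within the pre-molt group, C497 was the highest and 6762 the lowest library in HSPB1, HSPB2, HSPB3 and HSPB7, whereas in HSPB6 seal 6762 was lowest and seal 5572 highest. HSPB11, an intraflagellar transport subunit despite its symbol, stayed between 2.51 and 7.29 CPM.

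**Figure D3:**
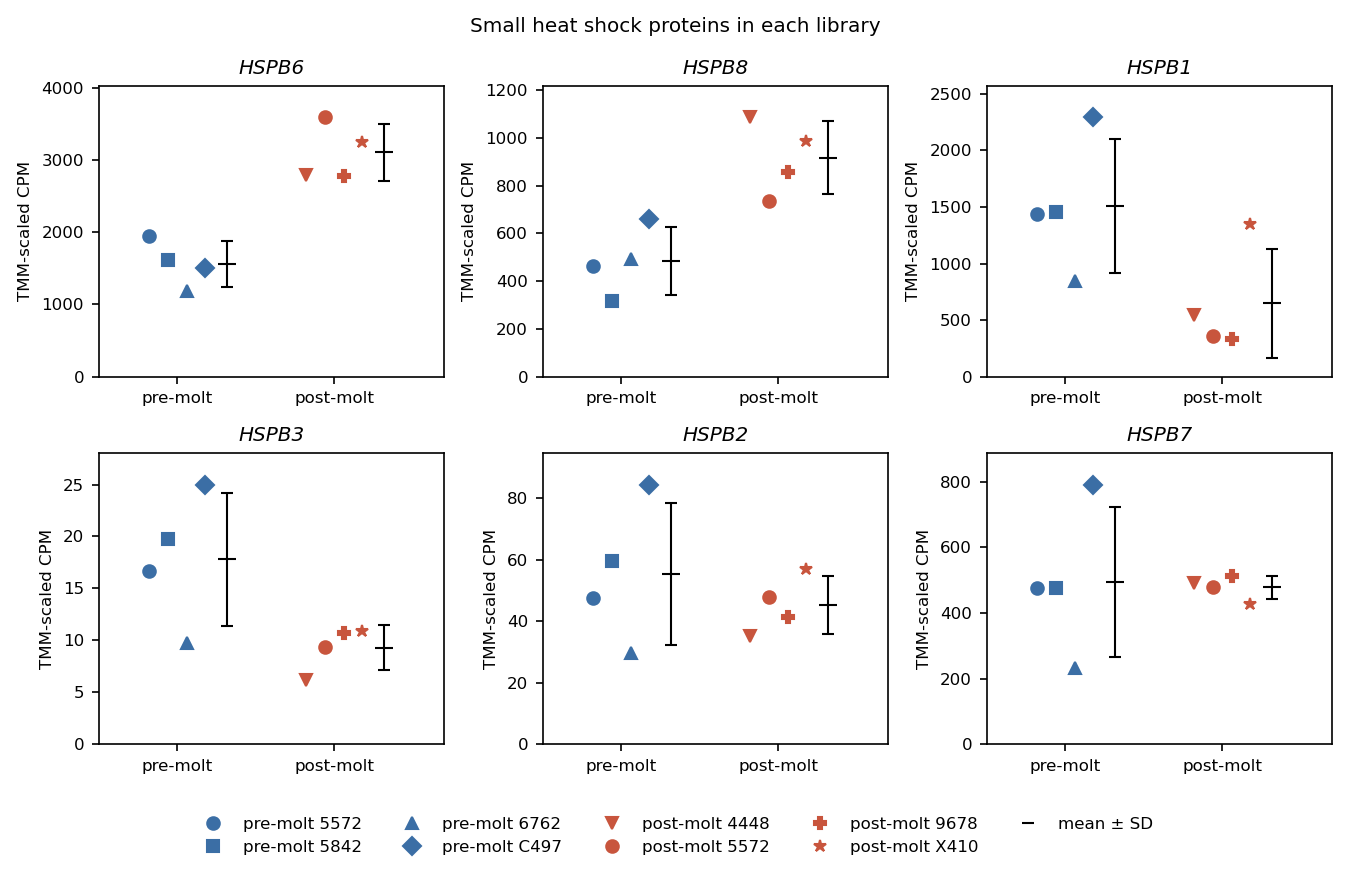
TMM-scaled CPM (vertical axes, from 0) of 6 small heat shock protein genes in the 4 pre-molt (blue) and 4 post-molt (red) libraries, 1 symbol per library, with the mean ± SD of each group. HSPB6 and HSPB8 show all post-molt points above all pre-molt points, HSPB1 shows 3 of 4 post-molt points below all pre-molt points and HSPB3 shows 2 of 4, and HSPB2 and HSPB7 overlap with a wider spread pre-molt.

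None of the 11 HSPA genes passed in edgeR or DESeq2, and 1 (HSPA12B, higher) had an unadjusted p under 0.05. HSPA8, the constitutive cytosolic HSP70, was at 288, 355, 265 and 285 CPM pre-molt and at 302, 174, 172 and 453 CPM post-molt. The post-molt libraries lay on both sides of the pre-molt range, with X410 highest, and the log2 fold change of -0.12 ± 0.29 (SE, edgeR adjusted p = 0.943) was between 0.01 and 0.06 without pre-molt 5842, post-molt 5572 or post-molt 9678. HSPA1A, the heat-inducible HSP70, was at 6.99, 5.90, 10.3 and 17.1 CPM pre-molt and at 14.6, 6.30, 8.16 and 51.5 CPM post-molt. X410 alone lay above the pre-molt range, and the log2 fold change was 0.997 ± 0.59 (SE, edgeR adjusted p = 0.594) with it and -0.05 without it. HSPA1A has a near-identical copy, HSPA1B, and reads that align equally well to both are not counted, so the level of HSPA1A is uncertain.

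HSPA2, an HSP70 best known from the testis and also expressed in muscle, averaged 319 ± 83.9 CPM before and 381 ± 47.1 CPM after the molt (SD, n = 4 each; log2 fold change 0.25 ± 0.21, SE, edgeR adjusted p = 0.75). The organelle forms had small positive differences: HSPA9 (mortalin), of mitochondria, went from 231 ± 63.3 to 302 ± 23.9 CPM and HSPA5 (BiP), of the endoplasmic reticulum, from 98.7 ± 28.1 to 119.5 ± 14.5 CPM (SD, n = 4 each), with edgeR adjusted p of 0.559 and 0.732. HSPA12B, an atypical HSP70 of endothelial cells, was at 24.4, 14.0, 16.4 and 20.3 CPM pre-molt and at 47.5, 33.8, 21.2 and 23.1 CPM post-molt. Its groups overlapped, and its log2 fold change of 0.74 ± 0.29 (SE, edgeR adjusted p = 0.316) was 0.48 without post-molt 4448. The summed level of the 9 endothelial markers was 457 to 597 CPM pre-molt and 421 to 473 CPM post-molt.

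HSPH1, the heat-inducible nucleotide exchange factor of the HSP110 type, was at 15.5, 19.0, 27.4 and 29.1 CPM pre-molt and at 18.2, 13.3, 16.6 and 45.8 CPM post-molt. With X410 the log2 fold change was 0.05 ± 0.37 (SE, edgeR adjusted p = 0.983) and without it -0.50. HSPA4, of the same structural class, was at 124, 120.4, 116 and 215 CPM pre-molt and at 127, 117, 97.8 and 132 CPM post-molt, with C497 apart from the other pre-molt libraries (log2 fold change -0.28 ± 0.23, SE, edgeR adjusted p = 0.74).

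Of the HSP90 genes, HSP90B1 (GRP94), the form of the endoplasmic reticulum, was at 171, 154, 268 and 167 CPM pre-molt and at 261, 267, 245 and 277 CPM post-molt. Pre-molt 6762 was at the post-molt level and the other 3 pre-molt libraries were below it, and the log2 fold change was 0.47 ± 0.21 (SE, edgeR adjusted p = 0.409). HSP90AA1, the inducible cytosolic form, was at 413, 433, 510.5 and 620.1 CPM pre-molt and at 539.6, 556, 646 and 755 CPM post-molt (log2 fold change 0.34 ± 0.21, SE, edgeR adjusted p = 0.607). HSP90AB1, the constitutive form, was at 1069 ± 120.1 and 1137 ± 130.4 CPM (SD, n = 4 each), a log2 fold change of 0.09 ± 0.19 (SE) and an edgeR adjusted p of 0.925. The mitochondrial chaperonin genes HSPD1 and HSPE1 had log2 fold changes of -0.05 ± 0.19 and -0.24 ± 0.25 (SE), with edgeR adjusted p of 0.96 and 0.815.

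**Figure D4:**
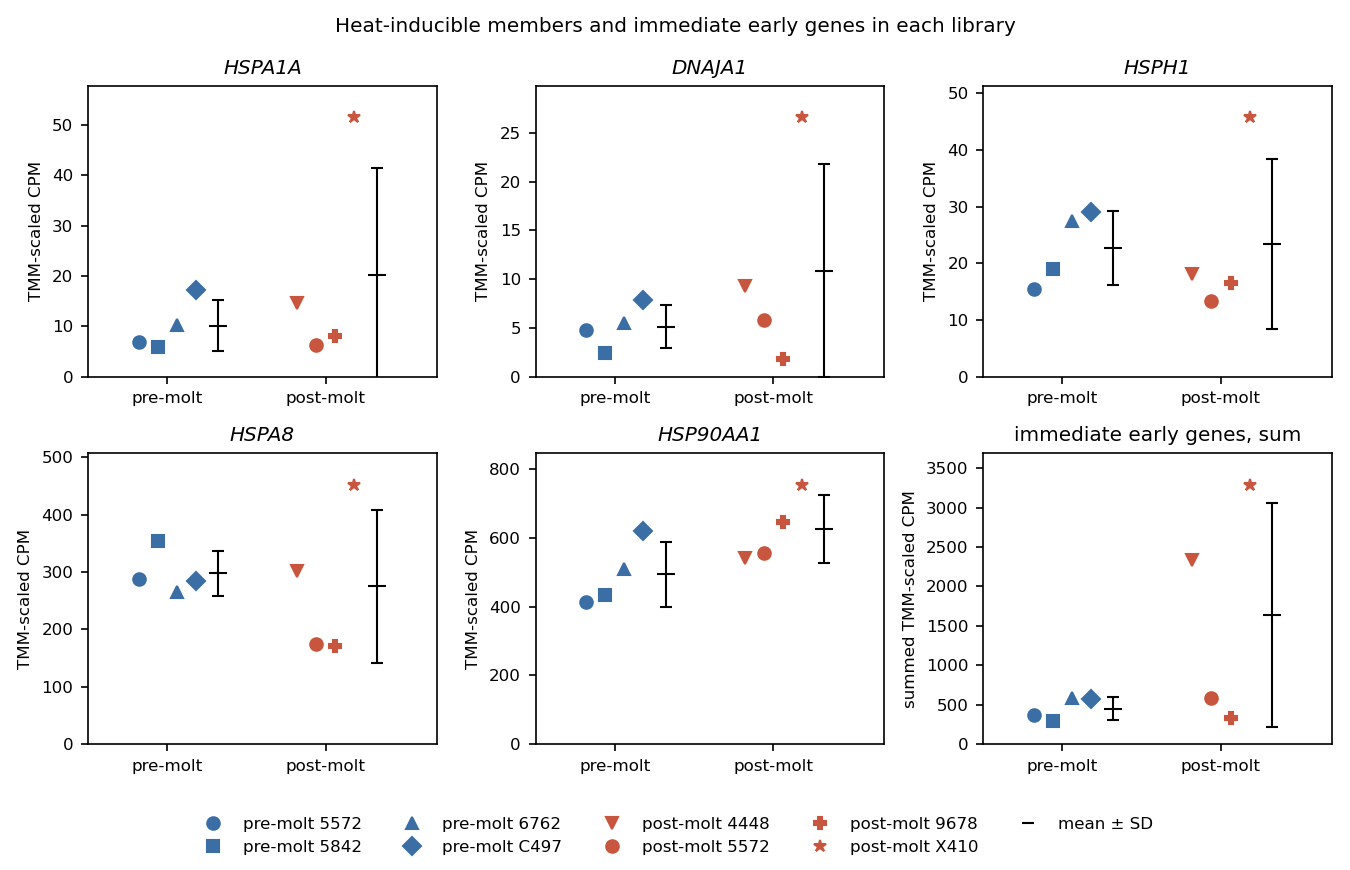
TMM-scaled CPM (vertical axes, from 0) of the members HSPA1A, DNAJA1, HSPH1, HSPA8 and HSP90AA1, and the summed CPM of 15 immediate early genes, in the 4 pre-molt (blue) and 4 post-molt (red) libraries, with the mean ± SD of each group (bars that run below 0 end at the axis). Post-molt X410 was the highest library in all 6 panels, and post-molt 4448 was second in the immediate early sum and in DNAJA1.

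Post-molt X410 was the highest of the 8 libraries in 19 of the 71 members, among them DNAJB1, DNAJB4, HSPA1A, DNAJA1, HSPH1, HSPA8, HSP90AA1, BAG2 and BAG1. Post-molt 4448, the other library with a high immediate early sum, was the highest in 13, among them DNAJA4, DNAJB2, HSPB8 and HSF1. Pre-molt C497 was the highest in 11 and post-molt 9678 in 10. The share over all genes tested was not computed, so these counts are not set against it. X410 also had the highest immediate early sum, 3293 CPM. In DNAJB6 and DNAJA4 it was the lowest of the post-molt libraries, in DNAJB6 nearly level with post-molt 5572 (187 and 188 CPM). In HSPB6 and HSPB8 it was neither the highest nor the lowest. The part of handling or of this animal in these values was not tested. Left out together with 4448, X410 lowered the log2 fold change of DNAJB1 to 1.13 and of DNAJB4 to 0.60, and gave 1.21 for DNAJB6, 1.27 for DNAJA4 and 1.03 for HSPB6.

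All 6 BAG genes were tested and 0 were called by edgeR or DESeq2, and 1 (BAG1, higher) had an unadjusted p under 0.05. BAG3, which couples HSPB8 and HSP70 to autophagy at the Z-disc, was at 289, 181, 275 and 459 CPM pre-molt and at 439, 300.1, 441 and 418 CPM post-molt. Pre-molt C497 was above all post-molt libraries, and the log2 fold change was 0.41 ± 0.27 (SE, edgeR adjusted p = 0.646). BAG1, an exchange factor that links HSP70 to the proteasome, was at 141, 96.2, 149.8 and 114 CPM pre-molt and at 183, 163, 134 and 206 CPM post-molt (log2 fold change 0.45 ± 0.21, SE, edgeR adjusted p = 0.43).

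BAG2, an inhibitor of the ubiquitin ligase CHIP, was at 15.7, 9.22, 28.3 and 11.8 CPM and at 24.3, 17.4, 16.9 and 43.7 CPM, with a log2 fold change of 0.65 ± 0.39 (SE, edgeR adjusted p = 0.593) that was 0.27 without X410. BAG5 and BAG6, the latter a carrier of membrane and mislocalised proteins, had log2 fold changes of 0.04 ± 0.17 and 0.05 ± 0.20 (SE, edgeR adjusted p = 0.965 and 0.96). BAG4 had at most 2.81 CPM in a library.

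Chaperone genes outside the 71 were read from 7 further lists, with 1 call among them. FKBP5, an HSP90 co-chaperone of steroid receptors and a glucocorticoid target, was at 12.3, 8.50, 19.6 and 10.6 CPM pre-molt and at 121, 53.9, 96.6 and 21.2 CPM post-molt. It rose by 2.52 ± 0.46 log2 units (SE, edgeR adjusted p = 0.0422), with no overlap, and X410 was the lowest post-molt library. Over 18 alternatives its adjusted p was 7.52e-06 (DESeq2) to 0.216, and its edgeR call ended in 6 of 8 fits without 1 library. The other 15 tested genes of that list, the HSP90 co-chaperones, were not called, 1 of them (CDC37L1, lower) had an unadjusted p under 0.05, and the list's median was 0.08.

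The TRiC chaperonin (8 genes, median -0.10), prefoldin (6 genes, median -0.47), HSP70 cofactors such as SGTA (13 genes, median -0.10), mitochondrial chaperones and proteases such as CLPX (8 genes, median -0.04), crystallins and heat shock factor partners (4 genes tested, median 0.22) and BAG3 autophagy partners (6 genes, median -0.16) had 0 calls in edgeR in either direction. An unadjusted p under 0.05 was reached with higher levels by the HSP70 cofactors SGTA and HSPBP1 and the mitochondrial protease gene SPG7, and with lower levels by HSCB, CCT4, CCT7, VBP1, CLPX, FLNC and WIPI1. DESeq2 called 1 of these genes, SGTA (adjusted p = 0.0371, and up to 0.86 over the alternatives). The smallest p in these lists belonged to SGTA (0.40 ± 0.16, SE, edgeR adjusted p = 0.353), CCT4 of TRiC (-0.57 ± 0.20, adjusted p = 0.262), VBP1 of prefoldin (-0.59 ± 0.24, adjusted p = 0.347), CLPX (-0.75 ± 0.26, adjusted p = 0.247), HSPBAP1 (0.37 ± 0.38, adjusted p = 0.826) and FLNC, the filamin that BAG3 handles at the Z-disc (-0.72 ± 0.27, adjusted p = 0.301). CRYAB, the muscle small heat shock protein outside the HSPB symbols, was at 1725, 1206, 570.4 and 2519.7 CPM pre-molt and at 1132, 1187, 966 and 1731 CPM post-molt, with C497 highest and 6762 lowest before the molt as in HSPB1.

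**Figure D5:**
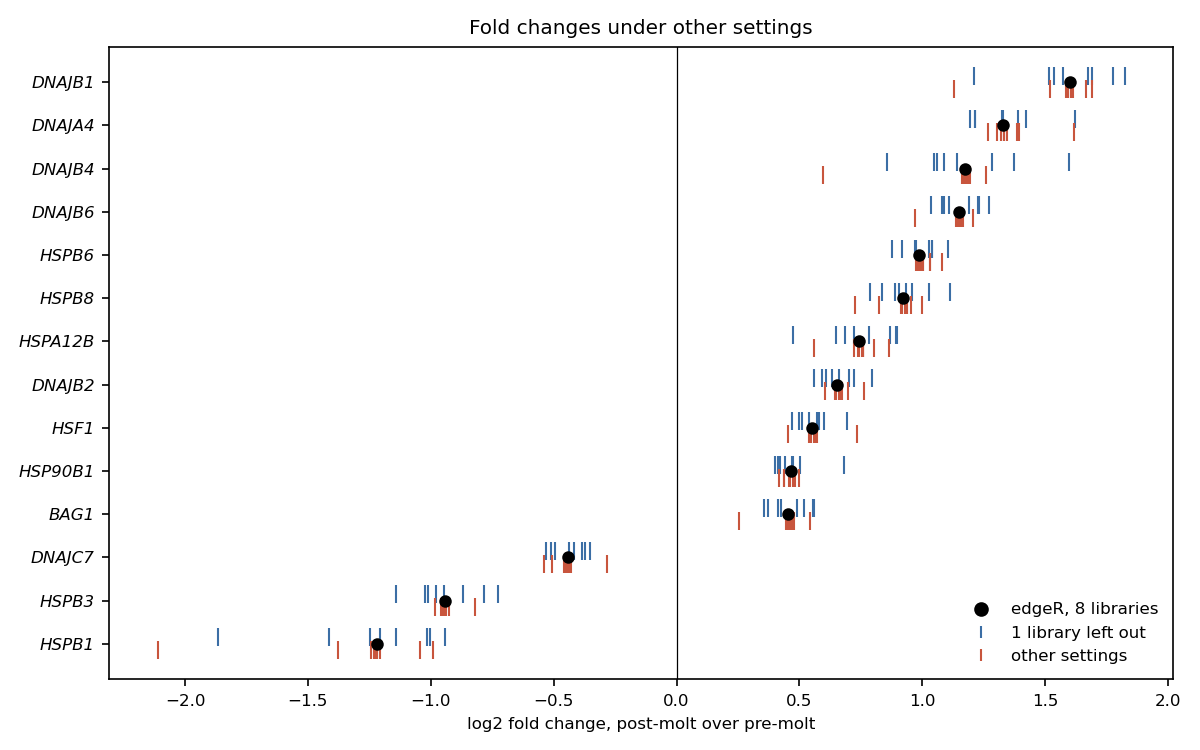
Log2 fold change post-molt over pre-molt (horizontal axis) of the 14 members with an unadjusted p under 0.05, with the edgeR fit over 8 libraries as a black dot, fits without 1 library as blue ticks and other settings as red ticks. No tick crosses 0, the largest spreads are those of HSPB1 (-2.11 to -0.94) and DNAJB4 (0.60 to 1.60), and DNAJB6 stays between 0.97 and 1.27.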

How the data were processed

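RNA-seq of 8 longissimus dorsi libraries (4 pre-molt, 4 post-molt) was used. The deposited table holds raw read counts per gene, which the authors made from paired reads and the genome of the Hawaiian monk seal with the aligner STAR. The submitters' processing notes list bcl2fastq 2.20, STAR, R 3.4.3 and DESeq2 1.18.1. The strand setting of the counting is not given in the sources used here, so a gene and an antisense partner that overlaps it may share reads, and reads that align to several places are not counted. The study's methods name the NEBNext Ultra kit and the sample labels the TruSeq kit. The table has 0 per-sample columns of other samples.

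Of 24349 entries, 8 name no gene (0.0145 to 0.0187% of a library's counts) and were left out. Genes were filtered with filterByExpr (minimum count 10, minimum total 15), leaving 14314 of 19403 genes with a count. The stages were compared with edgeR (4.0.16, R 4.3.3), using its quasi-likelihood test, TMM factors, Benjamini-Hochberg adjustment over all genes tested and a threshold of 0.05, without a seal term. Standard errors were derived from the fit. Ratios of log2(count + 0.5) were compared with exact two-sided permutation tests (scipy 1.17.1). Alternatives were DESeq2 1.42.0, limma-voom (limma 3.58.1), RLE and upper-quartile factors, no filter, at least 1 CPM in 4 libraries, leaving out the 20 most abundant genes, each library in turn, both libraries of seal 5572, or seals 5842 and 9678, and, added after seeing the data, post-molt 4448 and X410. Pre-molt 5842 and post-molt 9678 had the lowest reported shares of uniquely mapped reads. DESeq2 left 477 genes without a p and 8181 more without an adjusted p. The fit was tested on simulated data. Between libraries, chi-square per degree of freedom was at least 84.1 over 28 pairs, so no library was a copy of another.

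The members and the gene lists were chosen with earlier results of these data known. Genes were named by a rule: every member past the threshold or with an unadjusted p under 0.05, in each family the 2 members with the highest mean CPM and the 2 with the smallest p, all HSF and BAG genes, the members next to the count minimum, the genes of the ratios, and in each further chaperone list the called genes and the one with the smallest p. The rule gave 36 members. HSPA5, HSPA13, HSPB2, HSPB7, HSPB11, DNAJB13, DNAJC27, CRYAB, CDC37L1, HSPBP1, HSCB, CCT7, SPG7 and WIPI1 were added after their values were seen. No transcript lengths were used, so levels are not compared between genes, and no sequences are shown.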

Additional observations from a re-analysis of the deposited data

Results flagged for a closer look

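In groups of 4 libraries a library was looked at again when its gap to the nearest other one exceeded Dixon's 95% critical share of the group's range, which chance gives in about 1 in 20 groups; 10 of 96 groups did so.

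Pre-molt C497 stood above the rest of its group in HSPA4 (215 CPM against 116 to 124), DNAJB1 (18.7 against 10.8 to 11.6) and DNAJB4 (76.1 against 30.4 to 35.4). Pre-molt 6762 was high in HSP90B1 (268 CPM against 154 to 171), and pre-molt 5572 was low in HSPD1 (153 CPM against 174 to 176).

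Post-molt X410 was high in HSPH1 (45.8 CPM against 13.3 to 18.2) and in HSPBAP1 (10.8 CPM against 6.05 to 6.58), an HSPB1-associated protein. Post-molt 9678 was high in HSF2 (19.2 CPM against 10.1 to 11.3), post-molt 5572 was low in BAG3 (300.1 CPM against 418 to 441), and post-molt 4448 was high in DNAJB13 (4.57 CPM against 0 to 0.456).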

How the results depend on the processing

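No paired analysis was possible because the groups share 1 animal, seal 5572. The 1 member that rose in edgeR (50 genes called in all) became 3 with no filter (225 genes), 0 with at least 1 CPM in 4 libraries (34), 8 with DESeq2 (644) and 3 with limma-voom (94), was 0 to 1 without 1 library (9 to 48), and was 0 without both libraries of seal 5572 (5), without seals 5842 and 9678 (0), and without post-molt 4448 and X410 (1). At an unadjusted p under 0.05 the 11 higher members became 6 without 4448 and X410 (8 to 13 without 1 library), and the 3 lower members became 1 without both libraries of seal 5572, 1 without 5842 and 9678, and 0 to 4 without 1 library, 0 of them without pre-molt C497. The ratio of HSPH1 to HSPA4 differed by -0.17 to 0.36 without 1 library, its lowest value without post-molt X410.

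Of 856 values of single genes under the alternatives, 795 kept their direction and side of the threshold and 26 in 11 genes turned their sign. Without 4448 and X410 the log2 fold change was -0.48 in HSPA1A, -0.60 in HSPH1, -0.041 in HSP90AB1, -0.43 in DNAJA1, -0.0679 in BAG6, 0.011 in HSPB7 and -0.85 in DNAJB13. It was 0.034 in HSPA8 without both libraries of seal 5572, and 0.18 in HSPA8 and 0.039 in BAG4 without 5842 and 9678. With limma-voom it was -0.080 in HSPH1 and 0.075 in HSPB7. Without 1 library it ranged from -0.054 to 1.38 in HSPA1A, -0.46 to 0.059 in HSPA8, -0.50 to 0.25 in HSPH1, -0.14 to 0.049 in HSPD1, -0.075 to 0.16 in BAG6, -0.28 to 0.28 in HSPB7 and -0.53 to 0.11 in CRYAB. The causes were not tested. At 4 libraries a group, HSPB6, DNAJA4 and DNAJB1, with log2 fold changes of 0.99, 1.33 and 1.60, missed the edgeR threshold.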
